A study of Mus musculus with 6 samples.

Results

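The 8 genes described here carry the equipment with which killer lymphocytes destroy other cells: the granzymes Gzma, Gzmb and Gzmk, the pore-forming protein Prf1, the granule proteins Nkg7 and Ctsw, the death ligand Fasl and the receptor Klrg1. They were chosen by symbol, for what they are known to do, out of 29492 genes, and all 8 had a row in each of the 6 libraries. The study asked, by its title, how the subcoeruleus nucleus, a brainstem cell group, shapes immunity in the lung through sympathetic nerves. Whole lungs of male C57BL/6J mice aged 12 weeks were collected on day 3, digested with enzymes, cleared of dead cells and read as single-cell RNA on the BD Rhapsody microwell system. Control mice received PBS, LPS mice received lipopolysaccharide at 1 mg/kg, and the mice called SLC+LPS here received the same dose of LPS together with SLC-Gq activation 7 times. Each group held 2 mice, named by number (LPS 1, LPS 2). How the Gq activation was delivered, into which cells, and whether the control and LPS mice were sham operated is not given in the labels. No group with SLC activation alone was analysed here.

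Cytotoxic granules are secretory lysosomes of natural killer (NK) cells and killer T cells. On contact with a target, perforin (Prf1) opens its membrane and granzymes, serine proteases, enter and start cell death. In the lung NK cells patrol the vessels, and their granule load is known to be set by cytokines such as interleukin 12, 15 and 18. Fasl is a separate, surface-bound route to the same end, and Klrg1 is an inhibitory receptor of mature NK cells, effector T cells and group 2 innate lymphoid cells (ILC2). Klrg1 is therefore a maturation marker within this set and not a granule protein.

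Values are unique molecular identifiers (UMIs, each standing for 1 captured mRNA), given as counts per 1000000 UMIs of the cells summed (CPM), or as the share of cells with at least 1 UMI. The 6 libraries kept 11360 to 13650 cells each, with medians of 1134 to 2578 UMIs per cell, and any 2 libraries shared at most 6 cell barcodes. NK cells were gated on at least 2 of Ncr1, Klrb1c and Klre1 without Cd3e, and CD8 T cells on Cd3e with Cd8a or Cd8b1. In the order control 1, control 2, LPS 1, LPS 2, SLC+LPS 1 and SLC+LPS 2, which is used for every list of 6 values below, the NK gate held 356, 208, 156, 533, 61 and 109 cells. The CD8 T gate held 164, 135, 161, 160, 36 and 118 cells. Of genes that did not define the gate, the summed CD8 genes reached at most 7.90 CPM in NK sums. The NK gate genes, which the CD8 T gate did not use, stood at 23.7 to 186 CPM in CD8 T sums.

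Myeloid transcripts were present in both lymphocyte gates and differed between libraries. Of 11 mononuclear phagocyte genes, at least 3 were found in 24.2, 24.0, 47.4, 9.01, 36.1 and 59.6% of NK cells, and in 39.0, 23.0, 72.7, 11.9, 52.8 and 77.1% of CD8 T cells. Of 7 neutrophil genes, at least 3 were found in 26.3, 5.07, 14.8 and 30.3% of NK cells of the 4 LPS-treated libraries, against 1.69 and 0.962% in the controls. The LPS 2 library thus stood apart from the other 3 LPS-treated libraries: it had the lowest share of lymphocytes with 3 or more genes of either myeloid list, the most NK cells and the highest median UMI count. The part of these transcripts in the results below was not tested. The fits in NK and CD8 T cells were repeated without the cells that carried them, with the genes that still had enough UMIs.

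**Figure D1:**
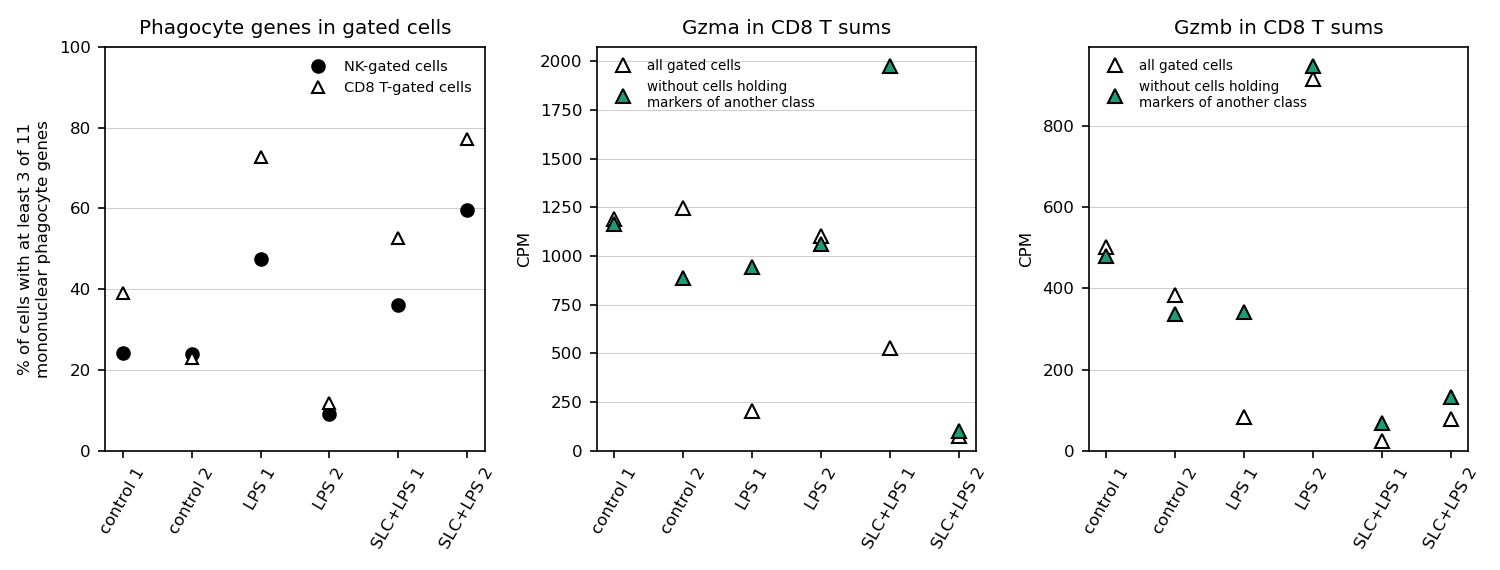
Left, share of gated cells (y axis, percent) with at least 3 mononuclear phagocyte genes, by library (x axis), for NK and CD8 T cells. Middle and right, CPM of Gzma and Gzmb in CD8 T sums by library. These are shown for all gated cells and without cells carrying at least 3 genes of another class. LPS 2 has the lowest share with mononuclear phagocyte genes in both gates (9.01% of NK and 11.9% of CD8 T cells), and SLC+LPS 2 the highest (59.6% and 77.1%).

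Of the granzymes, Gzma, a tryptase, was highest in NK cells in all 6 libraries. Its NK level was 6962, 9257, 7157, 13378, 5925 and 5832 CPM, and 91.9, 92.3, 92.9, 98.7, 93.4 and 88.1% of NK cells had a UMI. In LPS 2 the share was 98.7% (exact binomial 95% interval 97.3 to 99.5%), and in SLC+LPS 2, the lowest, it was 88.1% (80.5 to 93.5%); these intervals cover counting error only. CD8 T cells came next, with 1193, 1246, 205, 1103, 529 and 73.2 CPM. Their lowest library, SLC+LPS 2, lay within the range of γδ T cells (0 to 355 CPM), CD4 T cells (0 to 391 CPM) and other T cells (8.59 to 384 CPM), so the order below NK cells was not the same in every library. Gzma UMIs also appeared in 0 to 3.08% of B cells and in 0.96 to 8.29% of mononuclear phagocytes, which are not known to make it; the median depth was 934 to 1508 UMIs in B cells and 1031 to 4093 in phagocytes, against 1374 to 2697 in NK cells. The shares in NK cells were far above that background in every library.

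Gzmb, the granzyme that cleaves after aspartate and activates caspases, was also highest in NK cells among the lymphocyte gates. NK cells held 1720, 1602, 1295, 3917, 1550 and 1146 CPM and CD8 T cells 502, 384, 84.0, 917, 23.7 and 79.1 CPM. In γδ T cells it spanned 68.3 to 381 CPM and in CD4 T cells 39.6 to 399 CPM, ranges that overlapped that of CD8 T cells. The mast cell or basophil gate held only 10 cells in 4 libraries, yet 6 of them had Gzmb UMIs: 19 UMIs in control 1, 17 in control 2, 160 in LPS 2 and 11 in SLC+LPS 1. None of these 10 cells had a UMI of any of the other 7 genes.

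Gzmk, the granzyme of memory-like T cells, had the reverse order. CD8 T cells held 74.2, 29.2, 24.4, 160.1, 39.5 and 11.7 CPM, from 29, 8, 16, 88, 5 and 4 UMIs. NK cells held 4.30, 10.9, 4.56, 11.2, 8.07 and 7.90 CPM, from 3, 4, 2, 20, 1 and 2 UMIs, so most of these NK values rest on 1 to 4 molecules. In all 6 libraries the Gzmk level was higher in CD8 T cells than in NK cells, although CD4 T cells (6.15 to 33.2 CPM) overlapped both. CD8 T cells supplied 13.8 to 59.9% of a library's Gzmk UMIs and NK cells 4.17 to 13.6%. Gzmk lies directly beside Gzma on chromosome 13, and the neighbours thus had their higher level in different gates.

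Prf1, the pore former, was found mainly in the NK gate: NK cells held 664, 629.8, 739, 1157, 412 and 834 CPM and CD8 T cells 51.2, 25.6, 19.9, 67.3, 23.7 and 26.4 CPM. All 6 NK values lay above all 6 CD8 T values, whereas the CD8 T range overlapped that of γδ T cells (4.27 to 24.5 CPM). NK cells supplied 45.9 to 83.8% of a library's Prf1 UMIs.

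Nkg7, a granule membrane protein required for degranulation, stood at 648, 966, 944, 1780, 605 and 509.7 CPM in NK cells and 264, 183, 182, 500.4, 126 and 138 CPM in CD8 T cells. CD8 T cells of LPS 2 nearly reached the lowest NK library, while the remaining CD8 T values overlapped γδ T (20.8 to 137 CPM) and CD4 T cells (34.7 to 199 CPM). Ctsw, a cathepsin of killer cells, was sparse everywhere: NK cells held 57.3, 32.6, 77.5, 26.3, 40.4 and 63.2 CPM and CD8 T cells 28.2, 21.9, 48.9, 14.6, 31.6 and 26.4 CPM. Its ranges in NK, CD8 T, γδ T (8.54 to 44.2 CPM) and ILC2 sums (0 to 52.2 CPM) overlapped.

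Fasl was at 105, 163, 130.0, 381, 80.7 and 169.9 CPM in NK cells and 30.7, 51.2, 10.7, 138, 7.90 and 14.6 CPM in CD8 T cells. The single CD8 T value above the lowest NK libraries came from LPS 2, and CD4 T cells of the same library held 81.3 CPM. Klrg1 was at 128, 109, 192, 191, 32.3 and 142 CPM in NK cells. ILC2 held 71.8 to 137 CPM in the 6 libraries, a range inside that of NK cells, with 7.14 to 16.9% of ILC2 carrying a UMI. CD8 T cells held 46.1, 7.31, 4.58, 21.8, 0 and 0 CPM. Both zeros came from SLC+LPS libraries, where 3 UMIs, the most that a count of 0 allows, would stand for 23.7 and 8.79 CPM.

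**Figure D2:**
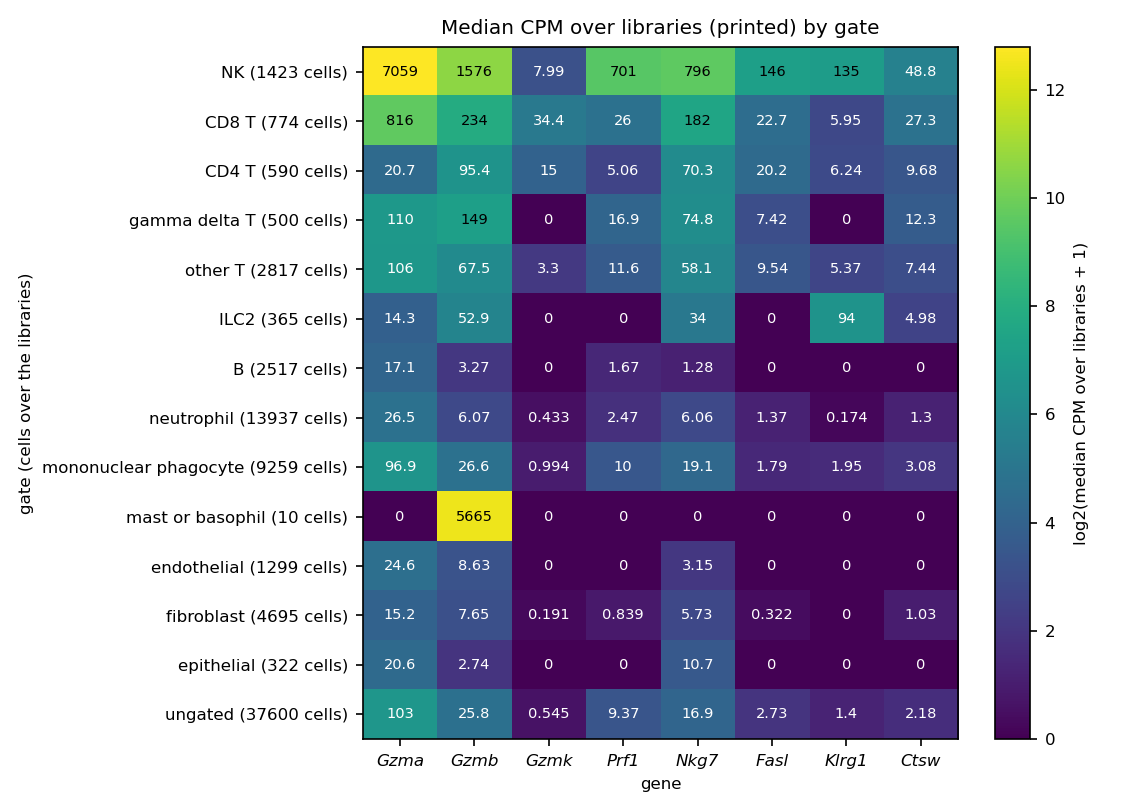
Heat map of the median CPM over the libraries, printed in each field, for each gene (x axis) and gated cell class (y axis). Colour gives log2(median CPM + 1). Gzma, Prf1 and Nkg7 reach their highest medians in NK cells (7059, 701 and 796 CPM), Gzmk in CD8 T cells (34.4 CPM), and Klrg1 is high in NK cells and ILC2 (medians 135 and 94.0 CPM).

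NK and CD8 T cells of the same library were compared next, with the library as a block, by edgeR's quasi-likelihood test with Benjamini-Hochberg adjustment over all genes; a gene is said to be called at an adjusted p under 0.05. Of the 8 genes 7 passed the low-count filter and all 7 were called higher in NK cells, against 11.9% of the 5230 genes tested. The filter dropped Gzmk, the gene that was higher in CD8 T cells in all 6 libraries. Klrg1 passed through its NK sums, since its CD8 T sums held 0 to 46.1 CPM. The count of 7 therefore follows in part from the filter. Differences are log2 fold changes with their standard error. Prf1 differed by 4.36 ± 0.18 (edgeR adjusted p = 3.3e-12), and its level was 13.0 to 37.2 times higher in NK cells across the 6 libraries. Gzma differed by 3.78 ± 0.59 (edgeR adjusted p = 0.00818). Its ratio was 5.84 and 7.43 in the controls, 35.0 and 12.1 after LPS and 11.2 and 79.6 in SLC+LPS; the CD8 T level spanned the wider range of the 2 gates.

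Gzmb differed by 2.79 ± 0.51 (edgeR adjusted p = 0.0142), with ratios of 3.43, 4.17, 15.4, 4.27, 65.4 and 14.48. The ratio of 65.4 rests on 3 Gzmb UMIs in 36 CD8 T cells. Klrg1 differed by 3.28 ± 0.55 (edgeR adjusted p = 0.00516), Fasl by 2.10 ± 0.26 (edgeR adjusted p = 3.8e-05) and Nkg7 by 1.92 ± 0.14 (edgeR adjusted p = 8.2e-09). Ctsw had the smallest difference, 0.76 ± 0.23 (edgeR adjusted p = 0.0205). The Ctsw call was lost without control 1 (adjusted p = 0.0715), LPS 2 (0.0634) or SLC+LPS 2 (0.0740) in the same edgeR fit. Without the cells carrying 3 or more genes of another class, Gzma, Gzmb, Prf1, Nkg7 and Fasl kept their calls, at 3.25, 2.39, 4.22, 1.78 and 1.76, while Ctsw and Klrg1 had too few UMIs for the test. Gzmk entered the test only without SLC+LPS 2, where it was lower in NK cells, at -3.40 ± 0.35, and called.

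**Figure D3:**
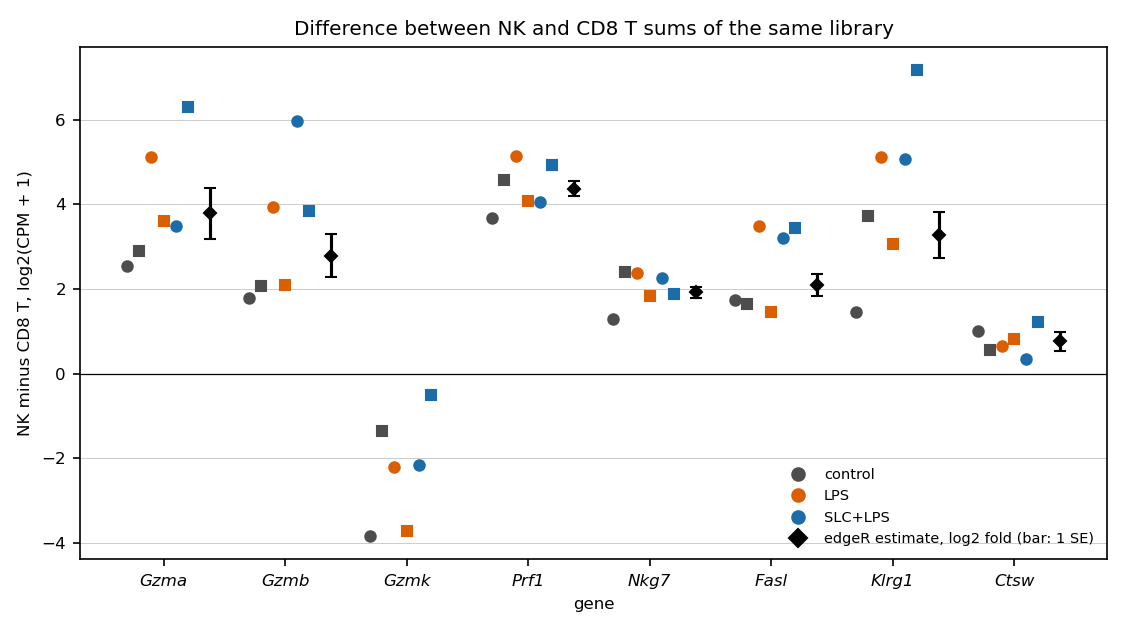
Log2(CPM + 1) in NK cells minus that in CD8 T cells of the same library (y axis), for each gene (x axis). Positive values are on the NK side. Diamonds give edgeR's log2 difference with 1 standard error for the tested genes. Every library lies on the NK side for Gzma, Gzmb, Prf1 and Nkg7; Gzmk lies on the CD8 T side in all 6 libraries.

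The 7 genes moved together between the gates, so the promoters of those found in RefSeq's promoter table are shown (GRCm38.p6; the submitters' processing notes name GRCm39, and no value was placed by these coordinates). Of the 8 genes 6 matched the table; Klrg1 and Ctsw did not, and Gzmk was not higher in NK cells. Each sequence runs 5′ to 3′ on the gene's strand, from 250 bases before the start to 50 after it. Capitals mark 3 letter strings on either strand: TGTGGT or ACCACA (the RUNX core), GGTGTGA or TCACACC (the T-box site bound by Eomes and Tbx21), and TTCNNNGAA (STAT). Positions are counted from the start site, negative before it.
Prf1 promoter, chr10:61297586-61297885, plus strand: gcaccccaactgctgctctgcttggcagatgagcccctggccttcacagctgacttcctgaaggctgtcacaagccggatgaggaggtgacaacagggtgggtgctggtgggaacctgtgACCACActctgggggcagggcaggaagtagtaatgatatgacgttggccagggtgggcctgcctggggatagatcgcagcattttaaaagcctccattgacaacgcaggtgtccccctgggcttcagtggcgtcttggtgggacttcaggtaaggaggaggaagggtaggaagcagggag
Gzma promoter, chr13:113100932-113101231, minus strand: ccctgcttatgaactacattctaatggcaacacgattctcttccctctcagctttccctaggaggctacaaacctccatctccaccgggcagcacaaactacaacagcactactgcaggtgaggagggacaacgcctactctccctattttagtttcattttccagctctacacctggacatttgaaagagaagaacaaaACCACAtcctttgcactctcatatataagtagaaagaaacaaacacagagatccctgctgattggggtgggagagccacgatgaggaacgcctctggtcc
Gzmb promoter, chr14:56262285-56262584, minus strand: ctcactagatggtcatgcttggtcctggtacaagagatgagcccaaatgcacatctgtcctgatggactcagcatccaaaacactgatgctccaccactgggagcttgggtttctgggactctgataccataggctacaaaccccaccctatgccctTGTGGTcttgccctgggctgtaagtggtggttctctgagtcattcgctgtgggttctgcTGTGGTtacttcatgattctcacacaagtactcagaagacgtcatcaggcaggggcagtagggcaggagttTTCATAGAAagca
Nkg7 promoter, chr7:43436888-43437187, plus strand: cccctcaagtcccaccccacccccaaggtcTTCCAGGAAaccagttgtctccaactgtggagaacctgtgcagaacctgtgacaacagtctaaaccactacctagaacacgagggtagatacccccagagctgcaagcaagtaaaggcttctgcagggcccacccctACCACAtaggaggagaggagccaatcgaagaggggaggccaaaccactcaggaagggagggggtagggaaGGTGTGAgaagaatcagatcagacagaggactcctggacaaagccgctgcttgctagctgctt
Fasl promoter, chr1:161788446-161788745, minus strand: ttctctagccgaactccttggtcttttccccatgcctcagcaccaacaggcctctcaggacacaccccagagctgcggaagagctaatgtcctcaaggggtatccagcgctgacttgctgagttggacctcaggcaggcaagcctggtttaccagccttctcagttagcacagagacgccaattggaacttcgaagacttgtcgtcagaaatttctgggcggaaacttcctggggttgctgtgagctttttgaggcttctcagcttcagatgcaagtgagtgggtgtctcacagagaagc

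The RUNX string was in 4 of these 5 promoters: at -130 in Prf1, -50 in Gzma, -83 in Nkg7, and both -93 and -34 in Gzmb. It was also in 16.76% of all 32851 promoters of this length. The T-box string was in Nkg7 alone of the 5, at -13, and in 3.979% of all promoters; it was also in Gzmk, at -75, the gene that was not higher in NK cells. The STAT string was at -220 in Nkg7 and 37 bases past the start in Gzmb, and in 8.298% of all promoters. Fasl held none of the 3 in this window, and no matches overlapped each other in these promoters. A match of letters describes the sequence and does not show that a factor binds there.

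Within the NK gate the genes were found in very different shares of cells. Gzmb UMIs were in 76.4, 79.8, 66.7, 97.2, 72.1 and 67.0% of NK cells and Prf1 UMIs in 64.0, 61.1, 70.5, 90.8, 45.9 and 72.5%. For Nkg7 the shares were 66.9, 76.4, 87.8, 97.4, 63.9 and 65.1%, for Fasl 18.0, 22.1, 28.8, 64.5, 14.8 and 24.8%, and for Klrg1 17.7, 16.3, 30.1, 38.3, 4.92 and 27.5%. LPS 2, the deepest NK library at a median of 2697 UMIs per cell, had the highest share for each of these 5 genes. With every cell thinned to 500 UMIs its shares were still the highest for Gzmb (79.2% against 39.7 to 53.7% elsewhere), Prf1 (43.0% against 26.2 to 31.7%), Nkg7 (60.8% against 23.0 to 41.7%) and Fasl (18.9% against 0 to 10.1%). For Klrg1 the thinned share was 9.94% in LPS 2 and 10.3% in LPS 1, so that order turned. Ctsw was in 9.83, 5.77, 17.9, 8.63, 6.56 and 13.8% of NK cells and was the exception to this pattern, since LPS 2 was not its highest library.

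Granule genes were found together in the same NK cells. Among NK cells with a Gzma UMI, 81.7, 83.9, 69.0, 98.3, 75.4 and 74.0% also had Gzmb, against 17.2, 31.2, 36.4, 14.3, 25 and 15.4% of NK cells without Gzma. Cells without Gzma were few: 1 had Gzmb and 6 did not in LPS 2, and 1 and 3 in SLC+LPS 1. After thinning the shares were 60.5, 56.8, 45.7, 81.5, 51.9 and 53.3% against 12, 13.0, 13.8, 20, 11.1 and 10.5%. At least 4 of the 8 genes were found in 55.6, 55.8, 63.5, 94.0, 34.4 and 56.0% of NK cells, and in 12.4, 13.9, 17.3, 34.7, 8.20 and 13.8% after thinning. CD8 T cells had a median of 0 to 1 of the 8 genes per cell and NK cells a median of 3 to 5. Deeper cells are more likely to show any pair of genes, so the thinned values carry the comparison between libraries.

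Klrg1, the maturation marker, split the NK gate the same way in each library. NK cells with a Klrg1 UMI numbered 63, 34, 47, 204, 3 and 30. Their Gzma level was 8723, 12641, 11711, 14779, 11828 and 11047 CPM, against 6549, 8439, 4990, 12409, 5664 and 3920 CPM in NK cells without one, higher in 6 of 6 libraries. Gzmb was 2581, 2149, 1952, 4228, 7249 and 1694 CPM with Klrg1 and 1518, 1469, 982, 3702, 1298 and 945 CPM without it, again higher in 6 of 6. Prf1 and Ccl5, a chemokine stored by killer cells, were higher with Klrg1 in 6 of 6 libraries as well. Tcf7, a factor of less mature lymphocytes, was lower in 6 of 6, at 22.6, 41.9, 35.4, 43.8, 0 and 29.5 against 95.6, 77.5, 121, 112, 109.6 and 113 CPM. Lyz2, a myeloid gene, was also lower with Klrg1 in 6 of 6, at 1404, 1074, 2709, 508, 4197 and 4522 against 1757, 2511, 3482, 935, 13587 and 5502 CPM, and its part in the split was not tested. Median depth was 1821 UMIs with Klrg1 and 1319.5 without in control 2, the widest gap of the 5 libraries with more than 3 such cells. The 3 cells of SLC+LPS 1 carry little weight. No test was made on this split, since 1 of the members defined it.

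The granzymes marked a minority of CD8 T cells. Gzma UMIs were in 22.6, 14.8, 10.6, 31.2, 19.4 and 10.2% of CD8 T cells, Gzmb in 25, 14.1, 13.7, 38.1, 5.56 and 9.32% and Nkg7 in 32.9, 25.9, 43.5, 58.1, 30.6 and 29.7%. The Gzmb share was 38.1% in LPS 2 (exact binomial 95% interval 30.6 to 46.1%) and 5.56% in SLC+LPS 1 (0.680 to 18.7%). After thinning to 500 UMIs the Gzmb share was 14.6, 8.15, 4.97, 20, 0 and 1.69%, so both SLC+LPS libraries were below both controls on either count. LPS 1 and LPS 2 stood on opposite sides of the controls.

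Gzmb was found more often in CD8 T cells with Gzma or Gzmk than in the rest, from few cells in SLC+LPS. Among CD8 T cells with Gzma, 73.0, 60, 52.9, 78, 28.6 and 41.7% had Gzmb, against 11.02, 6.09, 9.03, 20, 0 and 5.66% of the rest. After thinning the shares were 54.2, 30, 33.3, 65.6, 0 and 0% against 7.86, 6.40, 3.87, 8.59, 0 and 1.72%, so the difference was not seen in either SLC+LPS library. No test was made of these shares. Among the 22, 7, 11, 31, 2 and 4 CD8 T cells with Gzmk, 86.4, 71.4, 54.5, 90.3, 50 and 25% had Gzmb, against 15.5, 10.94, 10.7, 25.6, 2.94 and 8.77% of the others. The 51, 27, 30, 72, 7 and 18 CD8 T cells with a Gzma or Gzmb UMI also differed from the rest in genes of T cell state. Ccl5 was 11054, 5194, 1680, 4676, 2478 and 1835 CPM in them and 1018, 1397, 1627, 690.3, 565 and 986 CPM in the others. Lef1, a factor of naive T cells, was 104, 97.5, 92.1, 172, 82.6 and 69.0 against 291, 391, 126, 379, 355 and 205 CPM, lower in 6 of 6 libraries, and Tcf7 was lower in 6 of 6. Cxcr6, a receptor of T cells that reside in the lung, was higher in 6 of 6.

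After LPS alone, the granule genes of NK cells leaned upward without any being called. The 7 tested genes had positive log2 fold changes, with a median of 0.735 against 0.00779 over all 6102 genes. None was called, and 0.737% of all genes were, 45 in number; 1 of the 7 and 634 of all genes had an unadjusted p under 0.05. With 2 mice per group a permutation test of a single value cannot go below p = 0.33, and the p-values measure the spread between these mice only. The smallest p was that of Nkg7, whose NK level was 807 ± 225 CPM (SD, n = 2) in controls and 1362 ± 591 in LPS. Its log2 fold change was 0.84 ± 0.34 (edgeR adjusted p = 0.403), and LPS 1, at 944 CPM, lay between the controls. Prf1 and Klrg1 were the 2 genes whose LPS values lay wholly above the controls. Such separation of groups was not counted over all genes, for this or any other comparison. Prf1 was 647 ± 24.0 CPM in controls and 948 ± 296 in LPS (SD, n = 2), a log2 fold change of 0.63 ± 0.36 (edgeR adjusted p = 0.610). Klrg1 was 118 ± 13.4 and 191 ± 0.361 CPM (SD, n = 2), 0.76 ± 0.41 on the log2 scale (edgeR adjusted p = 0.579).

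The granzymes and Fasl differed more between the LPS mice than between the groups. Gzma was 8109 ± 1622 CPM in controls and 10267 ± 4400 in LPS (SD, n = 2), Gzmb 1661 ± 83.8 and 2606 ± 1854. Their log2 fold changes were 0.42 ± 0.32 (edgeR adjusted p = 0.743) and 0.74 ± 0.44 (edgeR adjusted p = 0.644), and LPS 1 lay within or below the controls for both. Fasl changed by 1.07 ± 0.53 (edgeR adjusted p = 0.551) and Ctsw by 0.10 ± 0.54 (edgeR adjusted p = 0.981). Without LPS 1, 348 genes were called, among them Fasl (1.64, adjusted p = 0.00652), Gzmb (1.34, 0.00793) and Nkg7 (1.25, 0.0171); in that edgeR fit the lone LPS library is assumed to vary like the other groups. Without LPS 2 no member was called, and Gzma (-0.12) and Gzmb (-0.30) had negative changes. The calls made without LPS 1 therefore rest on LPS 2. Its NK cells had the lowest share with 3 or more mononuclear phagocyte genes (9.01%), but a higher share with neutrophil genes (5.07%) than the controls, and whether either bears on the calls was not tested.

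**Figure D4:**
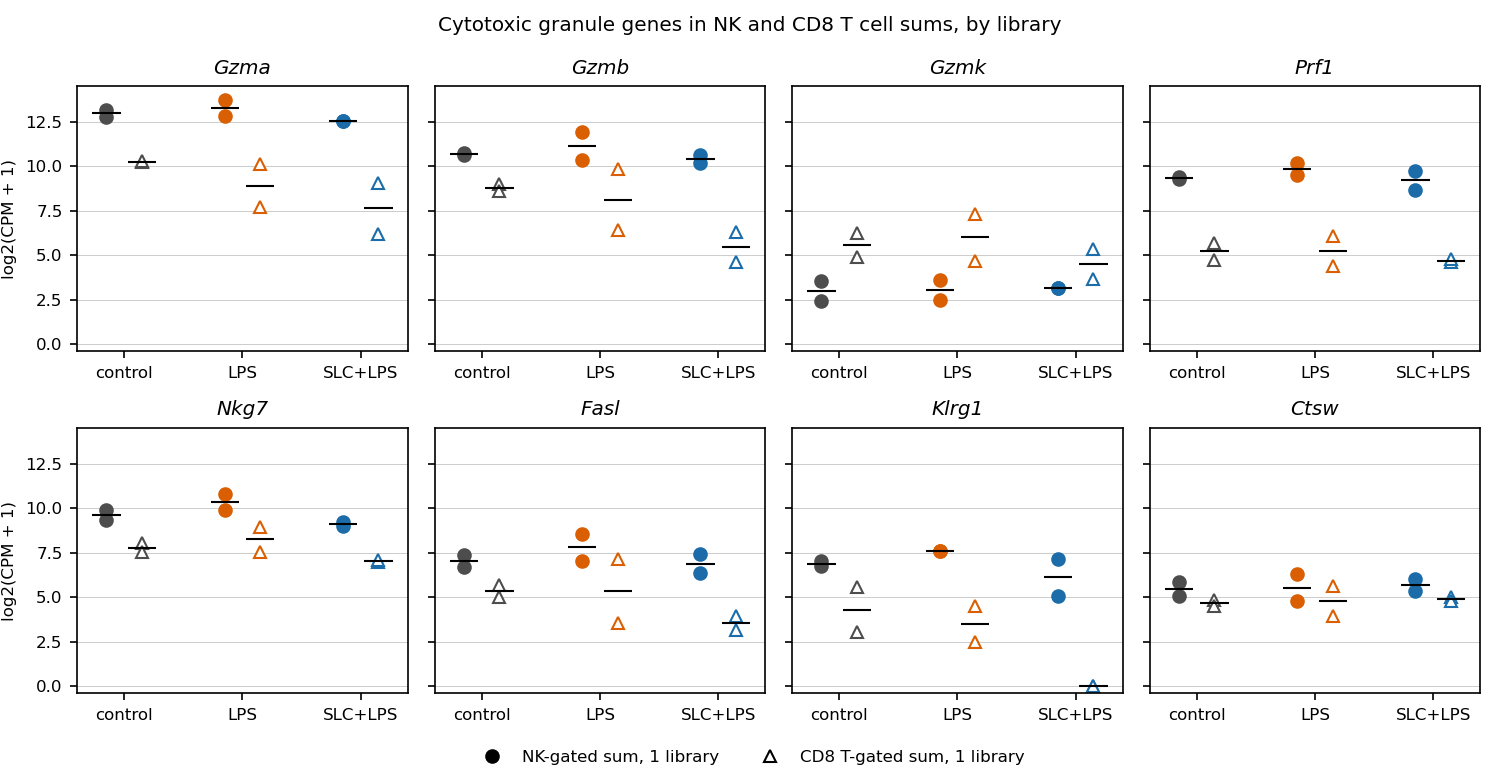
Log2(CPM + 1) of the 8 genes (y axis) by group (x axis), with each library as a point. NK cells are filled circles and CD8 T cells open triangles, with the group mean of the log values as a bar. LPS 2 is the highest NK library for Gzma (13378 CPM), Gzmb (3917 CPM), Prf1 (1157 CPM), Nkg7 (1780 CPM) and Fasl (381 CPM), while LPS 1 lies near the controls for most genes.

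SLC+LPS was set against LPS alone to see what activation added. In NK cells 6 of the 7 tested genes were lower with activation and Ctsw was higher, with a median log2 fold change of -0.982 against -0.00884 over all genes. None was called, in a comparison where 0% of 6102 genes were called by edgeR; 2 of the 7 and 403 of all genes had an unadjusted p under 0.05, and DESeq2 called 2 genes, neither a member. Nkg7 had the smallest p: 1362 ± 591 CPM in LPS and 557 ± 67.7 in SLC+LPS (SD, n = 2), a log2 fold change of -1.32 ± 0.35 (unadjusted p = 0.0028, edgeR adjusted p = 0.589). Gzma was 10267 ± 4400 and 5878 ± 65.9 CPM (SD, n = 2), -0.83 ± 0.33 on the log2 scale (unadjusted p = 0.0266, edgeR adjusted p = 0.723). For Nkg7, Gzma and Klrg1 both SLC+LPS libraries lay below both LPS libraries. How many of all genes separated so was not counted, and with 2 mice per group a permutation test cannot go below p = 0.33. Klrg1 was 191 ± 0.361 and 87.3 ± 77.7 CPM (SD, n = 2), a change of -0.98 ± 0.45 (edgeR adjusted p = 0.749), but the 2 SLC+LPS values came from 4 and 36 UMIs.

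Gzmb was 2606 ± 1854 CPM after LPS and 1348 ± 286 with activation (SD, n = 2), -0.99 ± 0.45 on the log2 scale (edgeR adjusted p = 0.749). Here LPS 1, at 1295 CPM, lay between the SLC+LPS libraries. Prf1 (-0.60 ± 0.36, edgeR adjusted p = 0.795) and Fasl (-1.0 ± 0.56, edgeR adjusted p = 0.790) also overlapped between the groups. Without LPS 1, 249 genes were called and 4 of them were members: Gzmb (-1.60, edgeR adjusted p = 0.00297), Nkg7 (-1.74, 0.00236), Gzma (-1.24, 0.0172) and Fasl (-1.54, 0.0202). Without LPS 2 none was, and Gzmb (0.04) and Fasl (0.05) had changes near 0. With genes of few UMIs kept in the fit, the tested genes rose to 17607 and 43 were called with all 6 libraries. Nkg7 (-1.48, edgeR adjusted p = 0.00258) and Gzmb (-1.16, edgeR adjusted p = 0.0355) were among them. With the NK cells carrying myeloid or other genes left out, Gzma was 8123, 10305, 9330, 14311, 7295 and 9349 CPM and Gzmb 1925, 1876, 1798, 4246, 1824 and 2371 CPM, and SLC+LPS 2 then reached the level of LPS 1 for Gzma and stood above it for Gzmb.

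SLC+LPS against control compared NK cells after both treatments with those of mice given PBS. Of the 7 genes 3 had positive and 4 negative log2 fold changes, with a median of -0.218 against -0.00103 over all genes. None was called, against 0.442% of all genes; the unadjusted p was under 0.05 for 544 of the 6102. Gzma, Gzmb and Nkg7 were lower in both SLC+LPS libraries than in both controls, with changes of -0.41 ± 0.33, -0.25 ± 0.45 and -0.48 ± 0.35 (edgeR adjusted p = 0.774, 0.930 and 0.743). The number of all genes separated in this way was not counted. Without the NK cells carrying genes of another class the Gzma and Gzmb groups overlapped, and the Gzmb change turned to 0.15. Prf1 changed by 0.04 ± 0.36, Fasl by 0.07 ± 0.59, Klrg1 by -0.22 ± 0.47 and Ctsw by 0.29 ± 0.61. The comparisons share their control and LPS libraries, so their values are not independent.

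**Figure D5:**
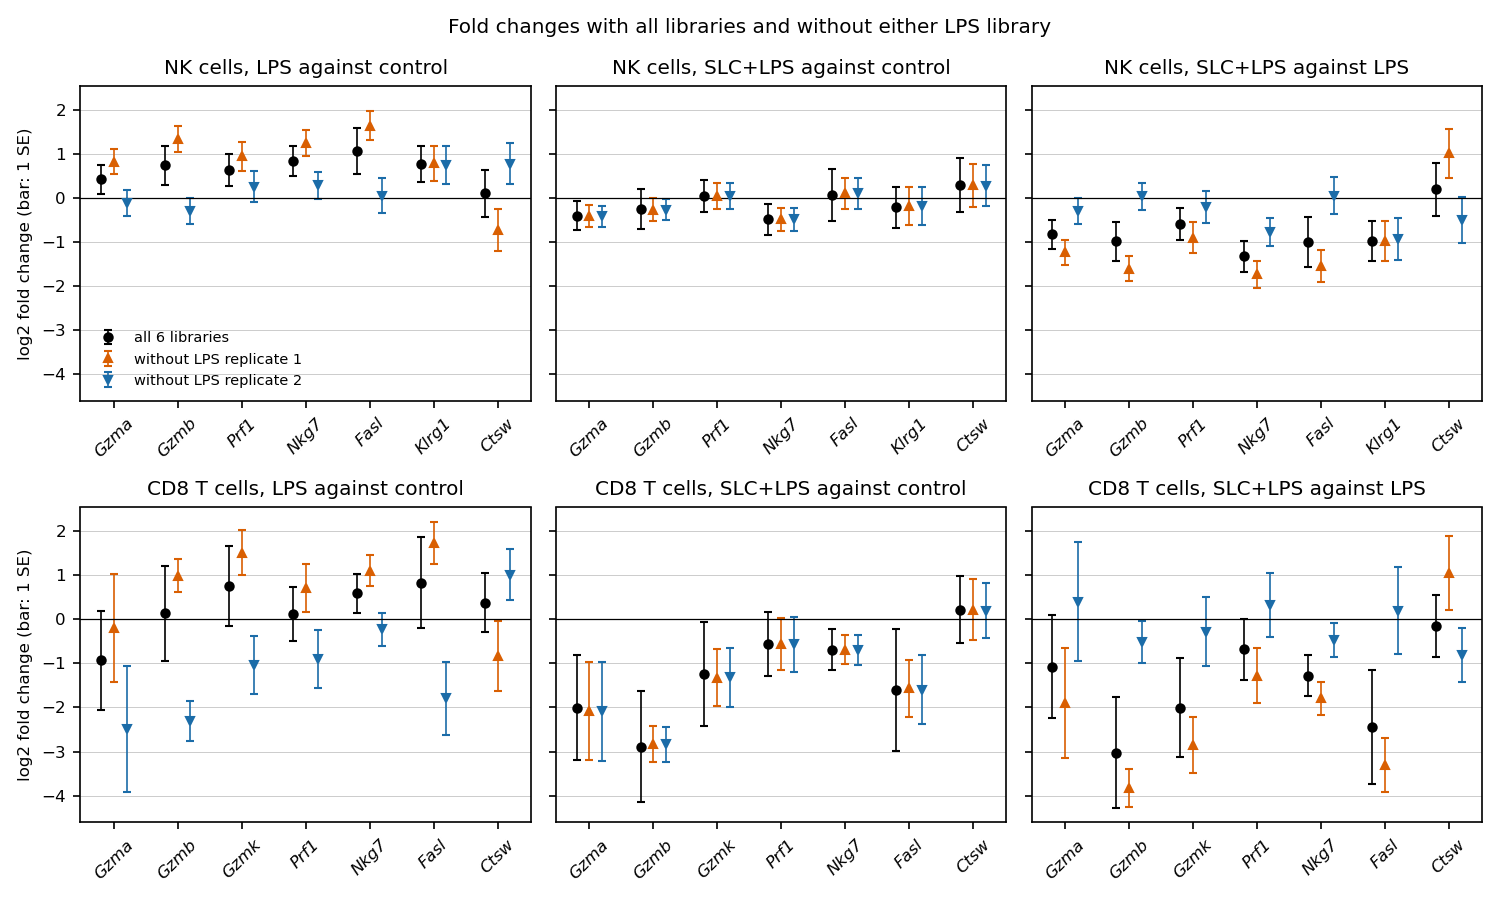
Log2 fold changes with 1 standard error (y axis) of the tested genes (x axis) in NK and CD8 T cells for the 3 comparisons. With all 6 libraries, all 7 genes in NK cells lie above 0 for LPS against control. For SLC+LPS against LPS 6 of 7 lie below 0. None was called in edgeR's fit of all genes with all 6 libraries. In LPS against control, Gzma (-0.12) and Gzmb (-0.30) lie below 0 without LPS 2, and Ctsw (-0.73) without LPS 1.

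Between the 2 LPS libraries CD8 T cells differed further. Gzmb was 443 ± 83.4 CPM in controls, 501 ± 589 in LPS and 51.4 ± 39.2 in SLC+LPS (SD, n = 2), from 196, 105, 55, 504, 3 and 27 UMIs. LPS 1 was below both controls, LPS 2 above them, and both SLC+LPS libraries below all others. Gzmb changed by 0.14 ± 1.08 after LPS (edgeR adjusted p = 0.994), by -2.89 ± 1.26 in SLC+LPS against control (edgeR adjusted p = 0.622) and by -3.02 ± 1.26 in SLC+LPS against LPS (edgeR adjusted p = 0.9997). Gzma was 1220 ± 37.7, 654 ± 635 and 301 ± 323 CPM in the 3 groups (SD, n = 2), lower in both LPS and both SLC+LPS libraries than in either control. Its changes were -0.93 ± 1.13, -2.0 ± 1.19 and -1.08 ± 1.17 in the same order of comparisons (edgeR adjusted p = 0.978, 0.710 and 0.9997). Nkg7 changed by 0.59 ± 0.44, -0.69 ± 0.47 and -1.28 ± 0.46 (edgeR adjusted p = 0.960, 0.720 and 0.9997).

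No gene of any kind was called in CD8 T cells: edgeR called 0% of 5886 genes after LPS, 0% in SLC+LPS against control and 0% in SLC+LPS against LPS. At an unadjusted p under 0.05 there were 332, 488 and 149 genes, and DESeq2 called 20, 50 and 1. Of the 7 members tested, 6 had positive changes after LPS (median 0.374), 6 had negative ones in SLC+LPS against control (median -1.25) and all 7 in SLC+LPS against LPS (median -1.28). Fits without LPS 1 or LPS 2 leave a lone LPS library, so only the sizes of change are given here. Without LPS 2, Gzmb changed by -2.31 after LPS, while without LPS 1 it had a change of 1.00 in the other direction. Without LPS 1, and likewise without LPS 2, Gzmb stood at -2.83 in SLC+LPS against control. Without LPS 1, Gzmb (-3.83), Nkg7 (-1.79), Fasl (-3.30) and Gzmk (-2.84) had negative changes in SLC+LPS against LPS.

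Cells with genes of another class moved these CD8 T values. Without them there were 90, 86, 30, 128, 17 and 19 CD8 T cells. Gzma was then 1166, 886, 946, 1063, 1979 and 99.4 CPM, so LPS 1 no longer stood below the controls and SLC+LPS 1 stood above them. The Gzma change in SLC+LPS against control went from -2.0 to -0.03. Gzmb was 479, 336, 342, 949, 68.2 and 133 CPM, and SLC+LPS remained lower than every other library, with a change of -2.05 against control (edgeR adjusted p = 0.648). Nkg7 was 318, 164, 342, 511, 205 and 365 CPM, and its change against control turned to 0.19.

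Whether NK and CD8 T cells responded differently was tested as an interaction of gate and group. For LPS against control 0.0191% of 5230 genes were called, 1 gene, and no member. For SLC+LPS against control 0% were called and for SLC+LPS against LPS 0%, again with no member; 250 and 197 genes had an unadjusted p under 0.05. The Gzmb difference for SLC+LPS against control, the NK change minus the CD8 T change, was 2.53 ± 0.94 (edgeR adjusted p = 0.936). It was called in 3 edgeR repeats: without LPS 1 (2.48), without LPS 2 (2.50) and without the cells carrying genes of another class (2.21 ± 0.54, adjusted p = 0.0247). For LPS against control it was called without LPS 2 (2.04, edgeR adjusted p = 0.0288).

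Summed over all kept cells of a lung, Gzma followed the NK share. NK cells made up 2.86, 1.69, 1.14, 4.69, 0.454 and 0.843% of kept cells. Gzma over the whole library was 290.0, 269, 125, 680.3, 36.3 and 108 CPM, and its order over the 6 libraries was the same as that of the NK share. Gzmb was 91.0, 63.2, 29.0, 225, 12.9 and 25.6, Prf1 29.2, 18.3, 12.8, 58.5, 2.93 and 14.6 and Nkg7 37.2, 37.1, 31.5, 99.5, 7.58 and 18.3 CPM. In 7 of the 8 genes, all but Ctsw, both SLC+LPS libraries lay below both controls, and so did LPS 1. How many of all genes lay so was not counted. In such sums fewer cells of a type and less RNA per cell cannot be told apart.

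No member was called over whole libraries: edgeR called 8.01% of 17931 genes after LPS, 12.6% in SLC+LPS against control and 0% in SLC+LPS against LPS, where DESeq2 called 17 and 495 had an unadjusted p under 0.05. All 8 members had positive changes after LPS (median 0.920) and negative ones in the other 2 comparisons (medians -1.07 and -2.08). Keeping genes of few UMIs in the fit raised the number of all genes called in each comparison, as listed under processing below. Members called were then 5, 5 and 6 in the 3 comparisons, with Gzma at 0.86 ± 0.28, -1.54 ± 0.29 and -2.40 ± 0.29. With the filter the Gzma changes were 0.89 ± 0.80, -1.54 ± 0.82 and -2.43 ± 0.84. For Gzma the standard errors thus differed between the fits, and the changes hardly did. NK cells supplied 52.4, 46.1, 67.2, 83.4, 54.4 and 50.6% of a library's Gzma UMIs. Cells with exactly 1 of the 3 NK gate genes, which the gate leaves out, numbered 339, 321, 210, 174, 111 and 199 and held another 24.0, 29.9, 14.4, 9.46, 26.4 and 25.2% of the Gzma UMIs. Their Gzma level was 2314, 2811, 690, 4448, 691 and 988 CPM, and a Gzma UMI was found in 31.4 to 60.2% of them.

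Other genes of the killer cell programme were read from the same fits, in lists of other granzymes, granule processing and transport, cytokine receptors, transcription factors, receptors, maturation, proliferation, secreted effectors and partners on other cells. In NK cells after LPS alone, 1 of the 69 tested genes of these lists was called, beside 0.737% of all genes: Rrm2, a subunit of the enzyme that makes DNA building blocks, changed by 2.62 ± 0.48 (edgeR adjusted p = 0.0323). All 6 proliferation genes had positive changes there, with a median of 1.80. Of 8 genes that process, pack or protect against granzymes, 7 had positive changes, led by Serpinb9, the granzyme B inhibitor, at 1.16 ± 0.33 (edgeR adjusted p = 0.173). Of 5 tested genes of granule transport and release all 5 had positive changes, led by Stx11, a fusion protein of the lytic granule, at 1.19 ± 0.29 (edgeR adjusted p = 0.111). Il2ra, the interleukin 2 receptor alpha chain, led the 9 tested cytokine receptors at 3.65 ± 0.88 (edgeR adjusted p = 0.164).

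In NK cells of SLC+LPS against LPS none of the lists held a called gene. Serpinb9b, a relative of Serpinb9, was at -2.12 ± 0.54 (edgeR adjusted p = 0.589), and Il18rap, the accessory chain of the interleukin 18 receptor, at -1.06 ± 0.33 (edgeR adjusted p = 0.650). Lamp1, the lysosome protein exposed on degranulation, was at 0.91 ± 0.30 (edgeR adjusted p = 0.663) and is also made by phagocytes. In CD8 T cells none of the lists held a called gene in any of the 3 comparisons. The smallest p belonged to Ccl5 in SLC+LPS against control, at -1.41 ± 0.33 (edgeR adjusted p = 0.442), with 3986, 2394, 1638, 2669, 1114 and 1166 CPM over the 6 libraries. Gzmc, the neighbour of Gzmb on chromosome 14, was sparse in NK cells, with 3, 1, 8, 22, 1 and 7 UMIs.

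The genes whose level over 73 sums of gate and library tracked each member most closely were sought among 8396 genes that define no gate (Pearson correlation of log2(CPM + 1), a description in which sums of 1 library share its depth). Eomes, the T-box factor of NK cells, came first for both Gzma (0.846) and Prf1 (0.912), followed by the receptor Klra3 for both (0.798 and 0.860). Gzmb was nearest to Il12rb2, an interleukin 12 receptor chain (0.899), and Nkg7 to Ms4a4b (0.917) and Klrd1 (0.913). Fasl was nearest to Tigit (0.910), Ctsw to Il2rb (0.889) and Klrg1 to Tnfrsf18 (0.751). Gzmk was nearest to Sh2d1a (0.808) and Ubash3a (0.759), signalling genes of T cells, and thus stood apart from the other granzymes here too.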

How the data were processed

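Single cells of 6 mouse lungs (3 groups of 2) were read on the BD Rhapsody system with 150 bp paired-end reads, per the labels' protocols. The authors deposited UMI counts per gene and barcode; the submitters' processing notes name GRCm39 (mm39), and the aligner, the gene annotation, the strand setting and the handling of reads shared by related genes, such as the granzymes, are not stated in the labels or notes. The 8 genes and the gene lists were chosen with earlier results of these data known.

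The tables held 31589233 to 48641470 UMIs per library, over 165547 to 253281 barcodes. A barcode was kept as a cell when it had 500 or more UMIs, 300 or more genes and under 20% mitochondrial UMIs, and Scrublet (scanpy 1.11.5) calls were removed. The caller marked 0.438% of barcodes in LPS 1, 0% in SLC+LPS 1 and 0.0155% in SLC+LPS 2, and so did not work there; an alternative left out the top 6% of doublet scores. Median mitochondrial shares were 8.81 and 7.99% in the controls and 1.23 to 2.79% in the other libraries. Cells were gated on marker UMIs, with 3 genes of 1 list and of no other for classes without Cd3e. The 8 genes in every gate are described. Of the wider lists, the genes called in a lymphocyte gate and otherwise those with the smallest p per list were candidates for naming, and of similar genes the 2 highest correlations per member; the text names some of each.

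Counts were summed per library and gate and tested with edgeR 4.0.16 in R 4.3.3 (TMM, filterByExpr, robust quasi-likelihood fit of all 6 libraries, group as the only term, Benjamini-Hochberg over all genes, called at an adjusted p under 0.05). NK and CD8 T sums were compared with the library as a block, and responses as an interaction. The scripts were tested on simulated data. DESeq2 1.42.0, other gates, cell filters, thinning to 500 UMIs, no low-count filter, a replicate block and leaving out each library were alternatives; leaving out cells with 3 or more genes of another class was added for the gate comparison after the data were seen. Replicate pairs differed by more than counting noise in each gate, with a chi-square of 2.14 to 13.6 per degree of freedom. Intervals are exact (Clopper-Pearson), at 95%, and a count of 0 allows up to 3 counts.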

Additional observations from a re-analysis of the deposited data

Results flagged for a closer look

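Barcodes with at most 100 UMIs hold too little RNA to be kept as cells and enter no comparison above. They carried granule transcripts at levels above both controls in some treated libraries, mostly in LPS 2, and below both controls in others. In LPS 2 these barcodes held Gzma at 472 CPM, against 159 and 155 CPM in control 1 and control 2. Gzmb stood at 140.6 CPM there, against 41.6 and 28.7, Prf1 at 33.0 CPM, against 14.4 and 6.66, and Fasl at 21.5 CPM, against 4.31 and 3.43. Klrg1 stood at 7.55 CPM in LPS 2, against 3.66 and 3.03. Nkg7 was at 22.0 CPM in LPS 1 and 77.2 CPM in LPS 2, against 20.3 and 21.4 in the controls. Gzmk was at 1.96 CPM in LPS 2 and 2.51 CPM in SLC+LPS 2, against 1.51 and 0.61. These Gzmk values rest on 7 and 9 UMIs, against 7 and 3 in the controls. Ctsw was at 6.14 CPM in SLC+LPS 2, against 3.23 and 2.62. In LPS 1, SLC+LPS 1 and SLC+LPS 2, Gzma was below both controls, at 85.9, 40.6 and 50.8 CPM. Gzmb, Fasl and Klrg1 were also below both controls in these libraries. Prf1 and Nkg7 were below both controls in SLC+LPS 1 and SLC+LPS 2, and Ctsw in LPS 2 and SLC+LPS 1. LPS 2 was also the library with the highest Gzma level over its kept cells, 680 CPM.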

How the results depend on the processing

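With 2 mice per group and 61 to 533 NK and 36 to 164 CD8 T cells per library, sparse genes (Gzmk, Klrg1 and Ctsw) were limited by depth. The next counts cover the changes of the 7 genes tested in NK cells, of Gzma, Gzmb and Nkg7 in CD8 T cells, and of the differences between the gates. Of 299 repeats under other settings, 278 kept their direction and their side of the threshold, 19 changed direction and 2 gained a call. Of 222 repeats without 1 library, 189 kept both, 19 changed direction, 11 gained a call and 3, all of Ctsw between the gates, lost one. A change that turned direction and was then called, such as Gzmb in CD8 T cells without LPS 2, is counted as a change of direction. The causes were not tested.

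All genes called in NK cells after LPS, 45 in the fit as reported, numbered 4 with all 3 gate genes required, 0 with at least 1 required, 2 after thinning, 4 without cells carrying genes of another class and 253 without the low-count filter. For SLC+LPS against control, 27 as reported, the numbers were 0, 0, 0, 0 and 134 in the same order, 77 with DESeq2, 48 with the replicate block and 15 without the top 6% of doublet scores. For SLC+LPS against LPS, 0 as reported, they were 2 with DESeq2 and 43 without the low-count filter, 2 of them members. For CD8 T cells, 0 as reported in each comparison, LPS against control gave 20 with DESeq2, 8 without cells carrying other genes, 161 without the low-count filter and 10 without the top doublet scores. SLC+LPS against control gave 50 with DESeq2, 179 without the filter and 9 with the replicate block, and SLC+LPS against LPS gave 1 with DESeq2 and 15 without the filter. Over whole libraries LPS against control, 1437 as reported, gave 3220 with DESeq2, 934 after thinning, 4076 without the filter (5 members) and 285 with the replicate block. SLC+LPS against control, 2265 as reported, gave 4128 with DESeq2, 4896 without the filter (5 members) and 453 with the block, and SLC+LPS against LPS gave 17 with DESeq2 and 317 without the filter (6 members). Without cells carrying other genes, 1 member, Gzmb, had a response that differed between NK and CD8 T cells in SLC+LPS against control. The replicate numbers do not pair the mice (correlations of deviations -0.18 to 0.12), and the block changed no member's call.

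Leaving out 1 library at a time, the genes called ranged from 25 to 348 in NK cells after LPS (25 without control 1, 348 without LPS 1), from 7 to 144 for SLC+LPS against control (7 without SLC+LPS 2, 144 without LPS 2) and from 0 to 249 for SLC+LPS against LPS (249 without LPS 1). For CD8 T cells the counts ranged from 0 to 203 (203 without LPS 2), from 0 to 211 (211 without LPS 2) and from 0 to 237 (237 without LPS 1) in the same order. Over whole libraries they ranged from 0 to 2869 after LPS (0 without either control), from 0 to 4998 for SLC+LPS against control (0 without either control or SLC+LPS 2) and were 0 throughout for SLC+LPS against LPS. Between NK and CD8 T cells they ranged from 878 to 1250. Members called ranged from 0 to 3, 0 to 0 and 0 to 4 in NK cells, 0 to 1, 0 to 1 and 0 to 4 in CD8 T cells, and 0 to 0, 0 to 1 and 0 to 0 over whole libraries, from 6 to 7 between the gates, and from 0 to 1, 0 to 1 and 0 to 0 for the differences of responses.

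The log2 fold changes that changed direction were these. In NK cells of SLC+LPS against control, Fasl was -0.70 with at least 1 gate gene, -0.018 without the low-count filter and -0.11 with the replicate block, Prf1 -0.72, -0.051 and -0.076 in the same settings and -0.027 after thinning. Gzmb was 0.046 after thinning and 0.15 without cells carrying other genes, Klrg1 0.13 and 0.11 in the same settings and 0.50 with all 3 gate genes, and Ctsw -0.35 with at least 1. Ctsw was -0.53 after LPS without cells carrying other genes and -0.37 in SLC+LPS against LPS with at least 1 gate gene. In CD8 T cells, Gzma in SLC+LPS against LPS was 0.042 and Nkg7 in SLC+LPS against control 0.19 without cells carrying other genes, and Gzmb after LPS was -0.63 with the replicate block and -0.59 with a stricter cell filter. Without 1 library the changes in NK cells after LPS ranged from -0.73 to 0.78 for Ctsw, -0.12 to 0.83 for Gzma and -0.30 to 1.34 for Gzmb. In SLC+LPS against LPS they ranged from -0.50 to 1.01 for Ctsw, -1.82 to 0.052 for Fasl and -1.60 to 0.036 for Gzmb. In SLC+LPS against control they ranged from -0.22 to 0.78 for Ctsw, -0.72 to 0.47 for Fasl, -1.89 to 0.37 for Klrg1 and -0.67 to 0.47 for Prf1. Changes in CD8 T cells ranged from -2.31 to 1.00 for Gzmb and -0.22 to 1.10 for Nkg7 after LPS, and from -3.07 to 0.40 for Gzma in SLC+LPS against LPS.

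Thinning to 500 UMIs moved the median share of NK cells with a UMI to 85.6% for Gzma, 48.9% for Gzmb, 0% for Gzmk, 30.4% for Prf1, 33.7% for Nkg7, 6.65% for Fasl, 7.36% for Klrg1 and 3.18% for Ctsw, and of CD8 T cells to 2.80% for Prf1 and 11.5% for Nkg7.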
